A study of Mus musculus with 2 samples.

Results

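The cells described here are the regulatory T cells of mouse B16-F10 tumours, a subset of CD4-lineage T cells, read out by single-cell RNA sequencing. A droplet counted as one when it held at least 1 UMI of Foxp3 and at least 1 UMI of Cd3e, Cd3d and Cd3g together. A UMI, or unique molecular identifier, stands for 1 captured RNA molecule. Droplets with 2 or more UMIs of Cd8a and Cd8b1, 5 or more of C1qa, C1qb, C1qc and Lyz2, or 10 or more of Pmel, Mlana and Dct were left out, which removed CD8 T cells, macrophages and melanoma cells. This gave 451 cells of the 13854 barcodes that passed the quality limits and of 15756 deposited. Of these, 283 of 7500 came from the OX40 agonist library and 168 of 6354 from the control library.

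Both groups were female wild-type C57BL/6 mice, 10 weeks old, with B16-F10 melanoma cells implanted under the skin of the right flank. One group received an agonist antibody against OX40, and the other served as control. B16-F10 is a transplantable, pigmented melanoma line derived from C57BL/6 mice. The labels' protocols sorted CD45-positive cells that excluded the dye DAPI, whereas the series' design text gives the opposite sign for DAPI. Each group is 1 library made with 10x Chromium 3′ v3 chemistry. The number of pooled mice, and the dose and schedule of the antibody, are not given in the sources used here, so no difference between the groups has a replicate to check it, and the values are those of a single library each.

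Regulatory T cells restrain other immune cells, and their lineage is set by Foxp3, a transcription factor of the forkhead family. They take up IL-2 through the high-affinity receptor chain CD25 (Il2ra), remove costimulatory ligands from antigen-presenting cells through CTLA-4, and release IL-10 and TGF-beta. In tumours they carry high levels of the costimulatory receptors OX40 (Tnfrsf4), GITR (Tnfrsf18) and 4-1BB (Tnfrsf9). OX40, the target of the antibody, is therefore itself a surface protein of these cells. Tissue-type regulatory T cells can also make amphiregulin (Areg), a growth factor of the EGF family, and carry KLRG1, a lectin-like inhibitory receptor that binds cadherins.

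The OX40 agonist library held 8569 barcodes and 118059108 UMIs, and the control library 7187 barcodes and 114026695 UMIs. The regulatory T cells together held 1797167 UMIs in the OX40 agonist library and 1286842 in the control library. Their median depth was 4276 UMIs per cell in the OX40 agonist library and 5309 in the control library. The libraries shared 18 barcode sequences, and no barcode was a regulatory T cell in both. Gene levels are counts of a gene per 1000000 UMIs, summed over the regulatory T cells of a library (CPM), and log2 ratios are OX40 agonist over control after adding 10 CPM to each. Ranges in parentheses are 95% intervals. They cover counting error only, leaving out any spread between animals or preparations. Those of levels count UMIs and also leave out the spread between cells. No test was possible with 1 library in a group.

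Every regulatory T cell had a Foxp3 UMI by definition. Of the other chosen markers, Ikzf2 and Tnfrsf4 were found in nearly all of them and Izumo1r in most. Foxp3 (chrX:7573644-7595245, plus strand, mm10, the GRCm38 build) stood at 342 CPM in the OX40 agonist library and 369 CPM in the control library. Ikzf2, the gene of the transcription factor Helios, had a UMI in 97.5% of regulatory T cells of the OX40 agonist library and 98.8% of those of the control library. Tnfrsf4 was found in 97.9% of cells in the OX40 agonist library and 98.8% in the control library. Izumo1r, which encodes folate receptor 4, was found in 72.4% of cells with OX40 agonist and 75.6% in control. In the libraries' CD8 T cells Ikzf2 stood at 186 CPM with OX40 agonist and 148 CPM in control, and Izumo1r at 11.8 CPM with OX40 agonist and 9.54 CPM in control.

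**Figure D1:**
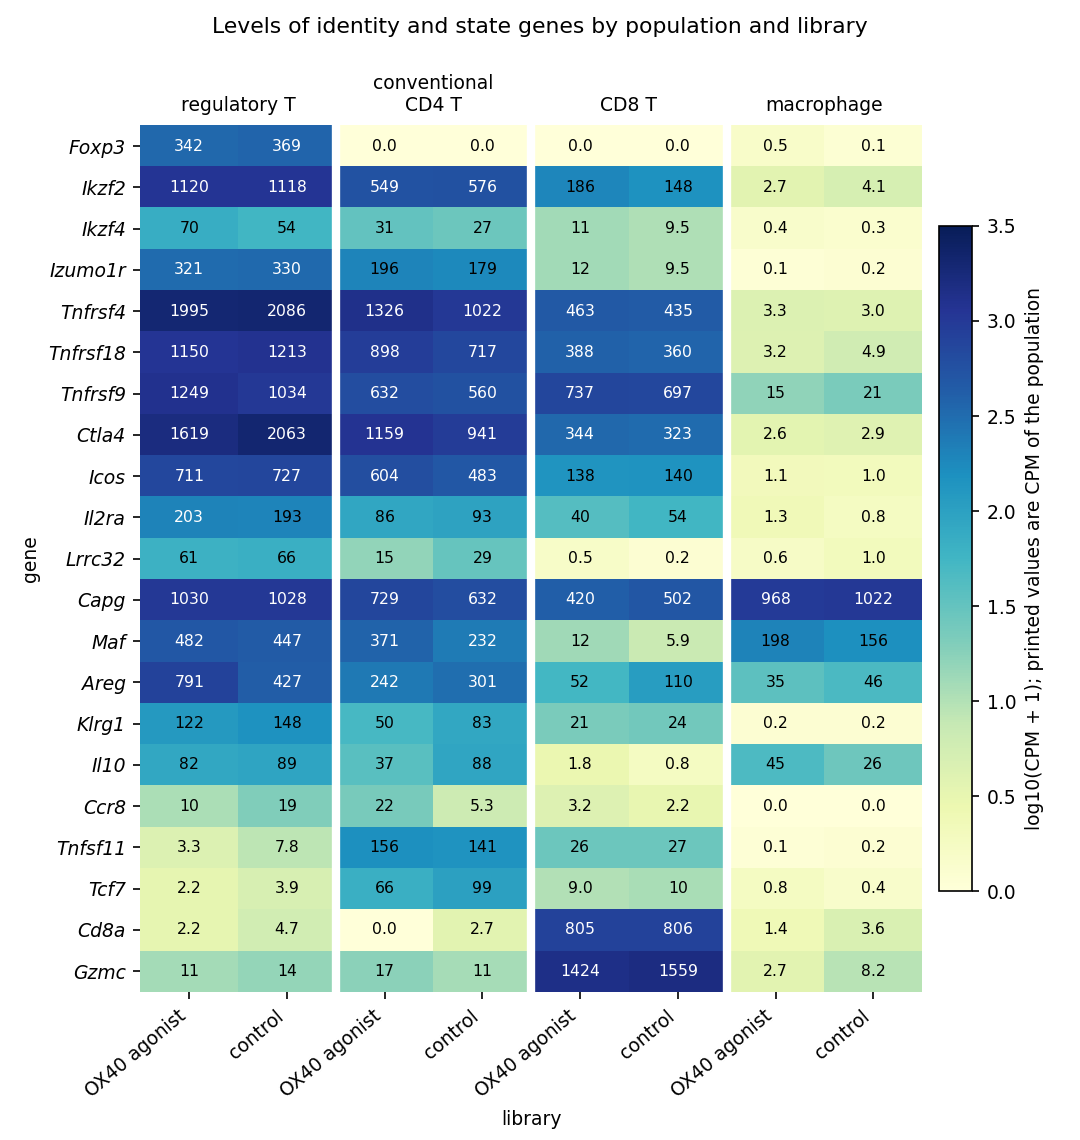
Levels in CPM of identity, state and contrast genes (rows) in regulatory T cells, conventional CD4 T cells, CD8 T cells and macrophages of the OX40 agonist and control libraries (columns). Foxp3 is present in regulatory T cells by the rule, Ikzf2 and Tnfrsf4 are also found in conventional CD4 T cells, and Areg is higher in regulatory T cells than in the other populations of either library.

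The values next to the limits of the rule show how the calls grade. In the OX40 agonist library 120 cells had exactly 1 Foxp3 UMI, 77 had 2 and 86 had 3 or more. In the control library 50 cells had 1 Foxp3 UMI, 42 had 2 and 76 had 3 or more. Cells with 1 Foxp3 UMI had Ikzf2 at 1329 CPM in the OX40 agonist library and 1468 CPM in the control library. CD4 T cells just outside, with no Foxp3 UMI, had Ikzf2 at 549 CPM with OX40 agonist and 576 CPM in control. Cells with 3 or more Foxp3 UMIs, which were deeper, had Ikzf2 at 910 CPM with OX40 agonist and 984 CPM in control. The cells with a single Foxp3 UMI were thus not the lowest in Ikzf2.

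Of the barcodes that passed the quality limits with a Foxp3 UMI, 219 of 502 were left out in the OX40 agonist library and 163 of 331 in the control library. Each of them is counted once, at the first limit it failed. Macrophage transcripts removed 131 in the OX40 agonist library and 80 in the control library. Cd8a and Cd8b1 removed 65 with OX40 agonist and 73 in control. Missing Cd3 UMIs removed 14 with OX40 agonist and 5 in control, and melanoma transcripts 9 with OX40 agonist and 5 in control. On the macrophage limit, cells with 3 or 4 UMIs, just inside, had Lyz2 at 185 CPM with OX40 agonist and 151 CPM in control. Droplets with 5 to 9, just outside, had 368 CPM with OX40 agonist and 215 CPM in control. On the Cd8 limit, 22 cells of the OX40 agonist library and 17 of the control library had exactly 1 UMI and were kept, whereas 7 with OX40 agonist and 4 in control had 2 or 3 UMIs and were not.

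Regulatory T cells were a larger share of the OX40 agonist library, and CD8 T cells a smaller one. They made up 3.77% (3.35 to 4.23) of passing barcodes in the OX40 agonist library and 2.64% (2.26 to 3.07) in the control library, a ratio of 1.43 (1.18 to 1.74). Among T cells the shares were 14.6% (13.1 to 16.3) with OX40 agonist and 7.88% (6.77 to 9.10) in control, a ratio of 1.86 (1.53 to 2.26). For each regulatory T cell, 4.40 CD8 T cells were called with OX40 agonist and 9.28 in control. The odds of a CD8 T cell against a regulatory T cell were 0.474 (0.384 to 0.584) times as high with OX40 agonist as in control.

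Conventional CD4 T cells, called by the same limits with no Foxp3 UMI and at least 1 Cd4 UMI, were also a larger share with OX40 agonist. There were 90 of them in the OX40 agonist library and 51 in the control library. A regulatory T cell with a Cd4 UMI whose Foxp3 RNA was not captured would be called conventional. With each cell thinned at random to 1000 UMIs, 37.2% of regulatory T cells with OX40 agonist and 38.8% in control kept a Foxp3 UMI. The part of such cells among conventional CD4 T cells was not tested. The share of regulatory T cells among both CD4 populations was 75.9% (71.2 to 80.1) with OX40 agonist and 76.7% (70.5 to 82.1) in control, a ratio of 0.989 (0.814 to 1.20). Cd4 itself was seen in 53.4% of regulatory T cells with OX40 agonist and 56.5% in control, so a CD4 population called by a Cd4 UMI is an undercount. With at least 2 Foxp3 UMIs required, the ratio over passing barcodes was 1.17. Regulatory T cells were shallower with OX40 agonist, and the part of depth in these shares was not tested.

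**Figure D2:**
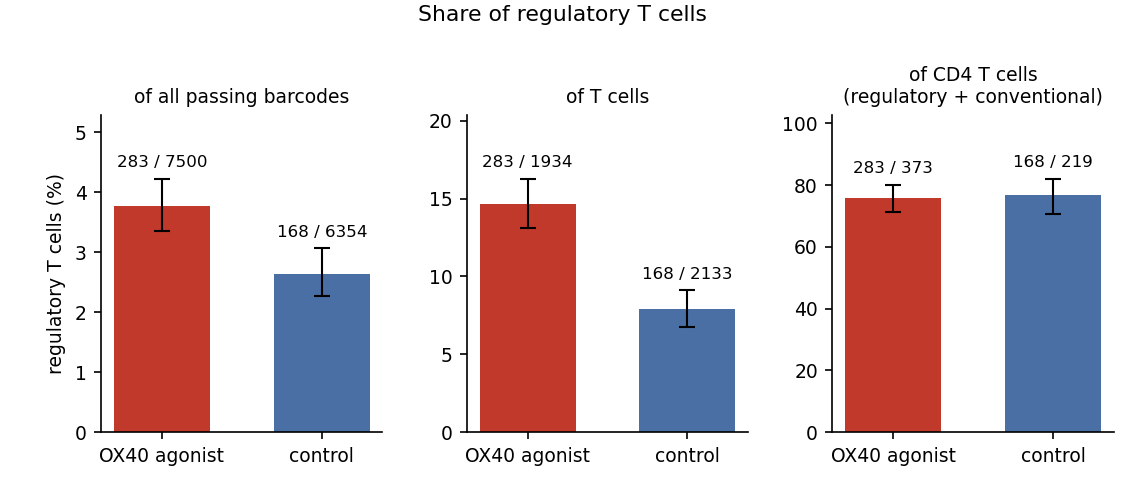
Regulatory T cells as a share (vertical axis, percent) of all passing barcodes, of T cells and of the CD4 T cell populations together, with OX40 agonist left of control, 95% Clopper-Pearson bars and the counts above them. The share is higher with OX40 agonist over all barcodes (3.77% with OX40 agonist and 2.64% in control) and over T cells, and close over CD4 T cells (75.9% with OX40 agonist and 76.7% in control).

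Some of the droplets also carried RNA of antigen-presenting cells. MHC class II transcripts (H2-Aa, H2-Ab1, H2-Eb1 and Cd74) reached 20 or more UMIs in 26 regulatory T cells (9.19%) of the OX40 agonist library and 18 (10.7%) of the control library. Those droplets had a median of 14667 UMIs with OX40 agonist and 10852 in control, and the remaining cells 4114 UMIs with OX40 agonist and 5101 in control. They held 86.8% of the regulatory T cells' MHC class II UMIs with OX40 agonist and 81.7% in control. They also held 99.0% of Ifitm1 UMIs with OX40 agonist and 100% in control, and 87.5% with OX40 agonist and 94.3% in control of Spi1, the gene of the myeloid transcription factor PU.1. A doublet score computed by the Scrublet method had no usable automatic threshold, so its highest 450 of 7500 barcodes with OX40 agonist and 323 of 6354 in control were marked. They held 8 of the 283 regulatory T cells with OX40 agonist and 2 of the 168 in control.

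Markers of dendritic cells were higher with OX40 agonist, and lists of other cells went in both directions. Dendritic cell markers summed to 599 CPM in regulatory T cells of the OX40 agonist library and 333 CPM in the control library. Of members above 10 CPM, 5 of 5 were higher with OX40 agonist, against 45.4% of all genes. Most of the sum was Ccr7, also a gene of T cells, at 348 CPM with OX40 agonist and 269 CPM in control. The droplets with MHC class II RNA held 50.6% of Ccr7 UMIs with OX40 agonist and 55.8% in control. Fscn1, an actin-bundling protein of mature dendritic cells, stood at 111 CPM with OX40 agonist and 24.9 CPM in control, and the droplets with MHC class II RNA held 83.9% of its UMIs with OX40 agonist. Ccl22, a chemokine that attracts regulatory T cells, stood at 79.6 CPM with OX40 agonist and 5.44 CPM in control, and those droplets held 71.3% of its UMIs with OX40 agonist. Macrophage markers summed to 265 CPM with OX40 agonist and 220 CPM in control, with 5 of 8 members higher with OX40 agonist. ILC2 markers summed to 81.8 CPM with OX40 agonist and 135 CPM in control, and both members above 10 CPM, Il1rl1 and Gata3, were lower with intervals apart, while Il5 and Il13 were at 0 in both libraries. The CD8 T cell list summed to 4579 CPM with OX40 agonist and 3875 CPM in control, nearly all of it Nkg7 and Ccl5, which were higher with intervals apart. Markers of NK cells summed to 7.23 CPM with OX40 agonist and 1.55 CPM in control (ratio 4.65, 1.05 to 42.5), and of gamma-delta T cells to 5.56 CPM with OX40 agonist and 2.33 CPM in control (ratio 2.39, 0.615 to 13.5). Markers of conventional CD4 T cells summed to 37.8 CPM with OX40 agonist and 25.6 CPM in control. Neutrophil markers summed to 7.23 CPM with OX40 agonist and 0 CPM in control, where none of their UMIs was found. Melanoma markers stood at 124 CPM with OX40 agonist and 138 CPM in control, and B cell markers, nearly all of them Ighm, at 169 CPM with OX40 agonist and 194 CPM in control. The part of RNA of other cells in the results was not tested.

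Against CD8 T cells of the same library, regulatory T cells were marked by transcription factors, receptors and adhesion molecules, and held little of granzymes C to F. The rule used this contrast, so the values describe and test nothing. With Foxp3, Cd8a and Cd8b1 left out, 270 of 7922 genes (3.41%) were 2-fold or more higher in regulatory T cells of both libraries and 106 (1.34%) 2-fold or more lower. Maf, a transcription factor that activates Il10, stood at 482 CPM in regulatory T cells and 12.2 CPM in CD8 T cells of the OX40 agonist library, and at 447 CPM in regulatory T cells and 5.91 CPM in CD8 T cells of the control library. Lrrc32, which encodes GARP, the surface anchor of latent TGF-beta, stood at 61.2 CPM in regulatory T cells and 0.527 CPM in CD8 T cells with OX40 agonist. In control it stood at 66.1 CPM in regulatory T cells and 0.171 CPM in CD8 T cells. Itgb8, the integrin chain that frees TGF-beta, stood at 65.7 CPM in regulatory T cells and 0.725 CPM in CD8 T cells with OX40 agonist. In control it stood at 40.4 CPM in regulatory T cells and 0.514 CPM in CD8 T cells. Conventional CD4 T cells had Itgb8 at 22.0 CPM with OX40 agonist and 48.0 CPM in control, so it did not set regulatory T cells apart from them in control.

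Other genes high beside CD8 T cells were Timp2, a metalloproteinase inhibitor, Ccr2, a chemokine receptor, and Itgb7, an integrin chain of gut homing. Their log2 ratios over CD8 T cells were 3.31, 2.69 and 2.55 with OX40 agonist and 3.42, 2.75 and 2.95 in control. Granzymes C, D, E and F were the lowest. Gzmc stood at 11.1 CPM in regulatory T cells and 1424 CPM in CD8 T cells with OX40 agonist, and at 14.0 CPM in regulatory T cells and 1559 CPM in CD8 T cells in control. Granzyme B (Gzmb) was less far apart, at 1030.0 CPM in regulatory T cells and 2055 CPM in CD8 T cells with OX40 agonist, and at 936 CPM in regulatory T cells and 2244 CPM in CD8 T cells in control.

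The distance to conventional CD4 T cells was smaller, and these may include regulatory T cells whose Foxp3 RNA was not captured. With Foxp3 and Cd4 left out, only 7 of 8395 genes (0.0834%) were 2-fold or more higher in regulatory T cells of both libraries, and 33 (0.393%) 2-fold or more lower. Il2ra stood at 203 CPM in regulatory and 86.3 CPM in conventional CD4 T cells with OX40 agonist, and at 193 CPM in regulatory and 93.3 CPM in conventional CD4 T cells in control. The log2 ratio of regulatory over conventional CD4 T cells was 1.01 with OX40 agonist and 0.94 in control for Ikzf2. It was 0.97 with OX40 agonist and 0.87 in control for Tnfrsf9, and 1.02 with OX40 agonist and 1.06 in control for Plin2, a lipid droplet protein. Gbp3, an interferon-induced GTPase, and Ass1, an enzyme of arginine synthesis, were also among the highest. Ifitm1 and Ifitm2 came out high too, but they lay mostly in the droplets with MHC class II RNA, without which Ifitm1 stood at 2.12 CPM in regulatory T cells with OX40 agonist and 0 CPM in control.

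Genes of helper and resting T cells were lower in regulatory than in conventional CD4 T cells. Tnfsf11, which encodes RANKL, stood at 3.34 CPM in regulatory and 156 CPM in conventional CD4 T cells with OX40 agonist, and at 7.77 CPM in regulatory and 141 CPM in conventional CD4 T cells in control. Tcf7, the transcription factor of resting and memory T cells, stood at 2.23 CPM in regulatory and 66.1 CPM in conventional CD4 T cells with OX40 agonist, and at 3.89 CPM in regulatory and 98.7 CPM in conventional CD4 T cells in control. Ms4a4b, a membrane protein of T cells, had log2 ratios of -2.95 with OX40 agonist and -1.60 in control, and Itgb1, an integrin chain, of -2.07 with OX40 agonist and -1.74 in control. Conventional CD4 T cells had Izumo1r at 197 CPM with OX40 agonist and 179 CPM in control. Neither Ikzf2 nor Izumo1r was thus confined to cells with a Foxp3 UMI. How far regulatory T cells without captured Foxp3 RNA make up these levels was not tested.

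Between the libraries, the identity of the regulatory T cells was nearly the same, and of the lists with more than 3 members above 10 CPM the largest median difference was that of the mitotic genes. In all, 7641 genes reached 10 CPM in at least 1 library. By the size rule 3 of them (0.0393%) were higher with OX40 agonist and 9 (0.118%) lower. Without the droplets with MHC class II RNA, 2 genes were higher and 19 lower. That rule asked for a 2-fold difference, at least 50 CPM and 30 UMIs, a UMI in 5% of cells and counting intervals that do not overlap. The level also had to reach 0.5 times that of the gene over all passing barcodes of the library. Without the further limits, 25 genes (0.327%) were 2-fold or more higher and 21 (0.275%) 2-fold or more lower. Over all these genes the median log2 ratio was -0.03, with 45.4% above 0 and 54.6% below.

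**Figure D3:**
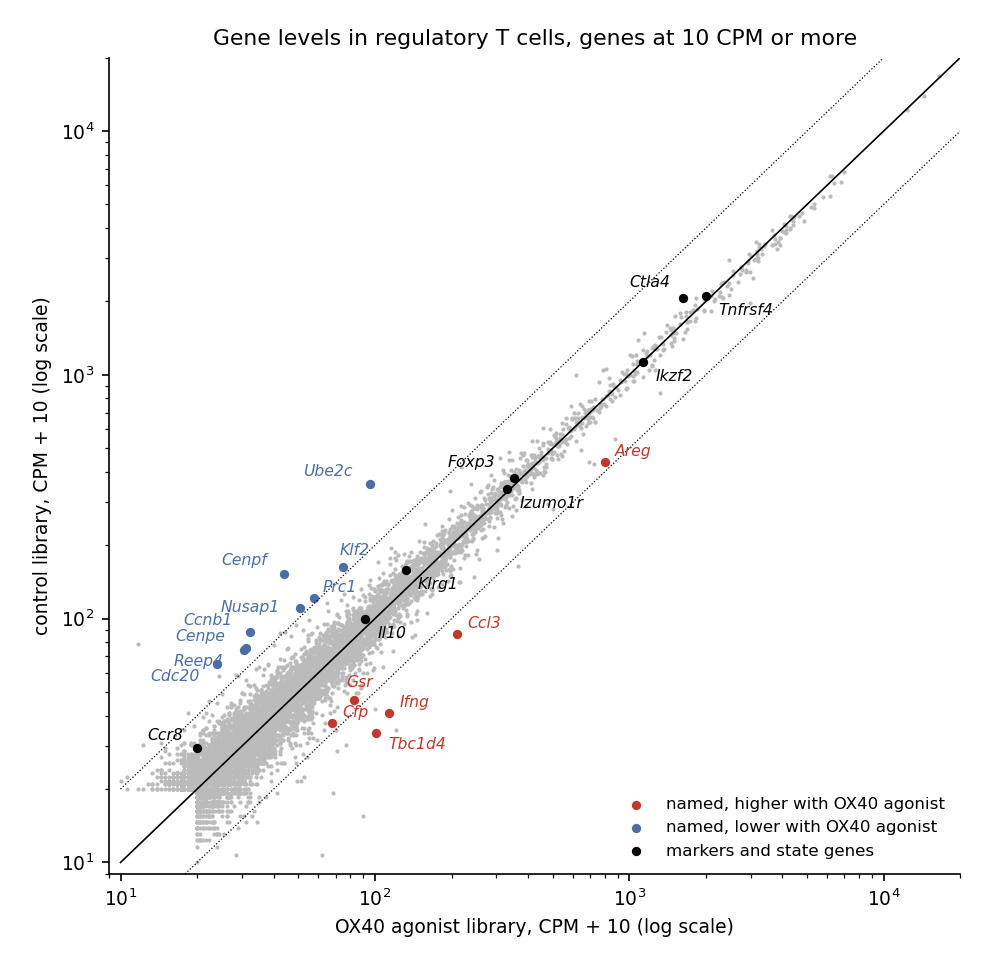
Gene levels in regulatory T cells (CPM plus 10, log scales), OX40 agonist library on the horizontal axis and control library on the vertical axis, 1 point per gene at 10 CPM or more in either. The solid line marks equal levels and the dotted lines 2-fold differences. The 4 chosen markers lie on the line, mitotic genes such as Ube2c (85.7 CPM with OX40 agonist and 345 CPM in control) lie above it, and Areg (791 CPM with OX40 agonist and 427 CPM in control) lies below it.

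The identity list had 15 members above 10 CPM, of which 7 were higher and 8 lower with OX40 agonist, with a median log2 ratio of -0.03. Ikzf2 stood at 1119.5 CPM with OX40 agonist and 1118 CPM in control, a ratio of 1.00 (0.935 to 1.07). Tnfrsf4, the gene of the antibody's target, stood at 1995 CPM with OX40 agonist and 2086 CPM in control, a ratio of 0.956 (0.910 to 1.01). Foxp3, Izumo1r, Il2ra, Icos, Tnfrsf18, Lrrc32 and Capg, an actin-capping protein gene, had ratios between 0.927 and 1.05, with intervals that include 1. Counting intervals were apart for 1 member, against 2.38% of all genes lower and 2.55% higher. That member was Ctla4, at 1619 CPM with OX40 agonist and 2063 CPM in control, a ratio of 0.785 (0.744 to 0.828). Its share of cells with a UMI after thinning each cell to 1000 UMIs was 74.8% with OX40 agonist and 84.8% in control.

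Costimulatory receptors and their signalling genes showed small differences in both directions. Of 9 TNF receptor superfamily members above 10 CPM, 5 were higher and 4 lower with OX40 agonist (median log2 ratio 0.12). Tnfrsf9 was the only one with intervals apart, at 1249 CPM with OX40 agonist and 1034 CPM in control (ratio 1.21, 1.13 to 1.29). The NF-kB list, which holds subunits and targets of the pathway downstream of these receptors, had 8 of 19 members higher and 11 lower, with a median of -0.03. Intervals were apart for 1 of them, Nfkbid, which encodes a nuclear inhibitor of NF-kB, at 33.9 CPM with OX40 agonist and 57.5 CPM in control. Of 15 IL-2 and STAT5 genes, 9 were higher and 6 lower (median 0.07). The feedback inhibitors of cytokine signalling Socs1 and Socs3 had intervals apart. Socs1 stood at 130 CPM with OX40 agonist and 73.8 CPM in control (ratio 1.76, 1.38 to 2.26), and Socs3 at 85.7 CPM with OX40 agonist and 56.0 CPM in control (ratio 1.53, 1.15 to 2.06).

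Genes of G2 and mitosis were lower with OX40 agonist throughout the list. All 28 members were lower, against 54.6% of all genes, with a median log2 ratio of -0.80, and counting intervals were apart for 23 of them. Together they summed to 1355 CPM with OX40 agonist and 2817 CPM in control, a ratio of 0.481 (0.457 to 0.507). The S phase list summed to 1224 CPM with OX40 agonist and 1331 CPM in control, a ratio of 0.920 (0.863 to 0.980), and 16 of its 19 members above 10 CPM were lower (median log2 ratio -0.12). DNA replication genes thus stood close to each other in the libraries, while mitotic genes stood about 2-fold apart.

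Of the 9 genes lower by the size rule, 7 are on the mitotic list. Ube2c, which encodes the ubiquitin-conjugating enzyme of the anaphase-promoting complex, stood at 85.7 CPM with OX40 agonist and 345 CPM in control, a ratio of 0.248 (0.205 to 0.299). Cenpf, a kinetochore protein, stood at 33.9 CPM with OX40 agonist and 143 CPM in control. Cyclin B1 (Ccnb1), which drives entry into mitosis, stood at 22.3 CPM with OX40 agonist and 78.5 CPM in control. Cdc20, the activator of the anaphase-promoting complex, stood at 13.9 CPM with OX40 agonist and 55.2 CPM in control. These are components of mitotic entry and exit, and their ratios lay between 0.237 and 0.284. Without cycling cells the log2 ratio was -0.40 for Ube2c, -0.69 for Cenpf and -0.36 for Ccnb1, and Cdc20 was on the other side, at 0.24. With cells thinned to 1000 UMIs, Ube2c had a log2 ratio of -0.23 and Ccnb1 one of -0.30.

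The kinetochore motor Cenpe, the spindle protein Nusap1 and Prc1, which bundles microtubules in the dividing cell, had log2 ratios of -1.29, -1.13 and -1.07 in that order. Without cycling cells these were -0.30, -0.25 and -0.51. Reep4, which clears membrane from mitotic chromosomes, stood at 20.6 CPM with OX40 agonist and 64.5 CPM in control, and was found in 11.0% of cells with OX40 agonist and 19.6% in control. Genes with the smallest differences on the list included Bub1b, a checkpoint kinase (log2 ratio -0.23), and Mki67, the gene of the Ki-67 antigen (-0.56).

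**Figure D4:**
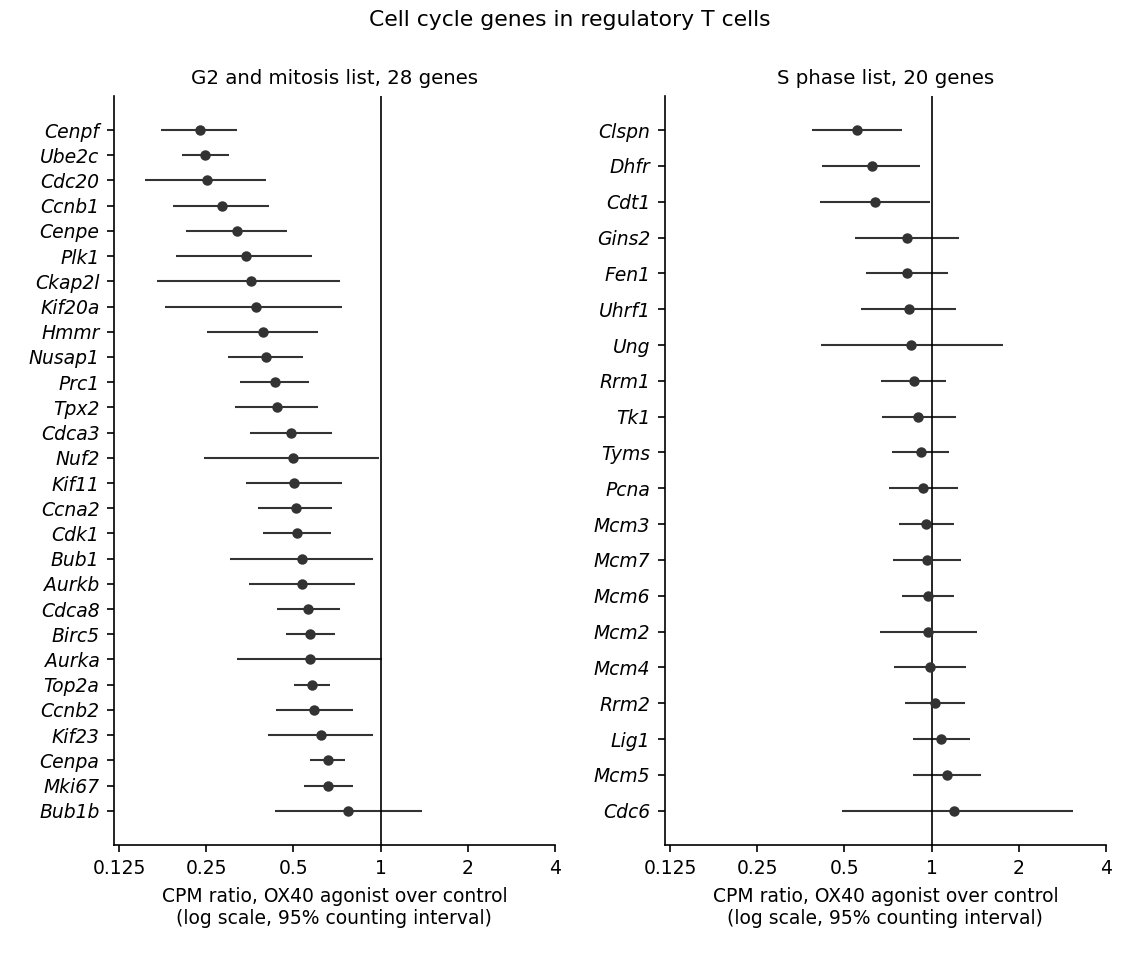
Ratio of CPM, OX40 agonist over control (horizontal axis, log scale), of each member of the G2 and mitosis list and of the S phase list in regulatory T cells, with the 95% counting interval as a bar. All 28 mitotic genes lie left of 1 (median log2 ratio -0.80), and the S phase genes lie closer to 1 (median log2 ratio -0.12).

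The promoters of the 4 genes with the lowest ratios are shown because mitotic genes are known to share short control elements near their start. The windows run from 130 bases before to 20 bases after the RefSeq start on GRCm38.p6, in the direction of the gene: Ube2c at chr2:164769799-164769948 (plus strand), Cenpf at chr1:189688067-189688216 (minus strand), Ccnb1 at chr13:100786467-100786616 (minus strand) and Cdc20 at chr4:118437324-118437473 (minus strand). Capitals mark the CCAAT box, searched on both strands as CCAAT. They also mark the core of the cell cycle homology element, searched on both strands as TTTGAA and as TTCGAA.
Ube2c: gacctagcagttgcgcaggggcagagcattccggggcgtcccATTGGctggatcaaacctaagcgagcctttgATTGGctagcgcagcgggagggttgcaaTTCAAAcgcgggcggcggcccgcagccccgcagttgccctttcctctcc
Cenpf: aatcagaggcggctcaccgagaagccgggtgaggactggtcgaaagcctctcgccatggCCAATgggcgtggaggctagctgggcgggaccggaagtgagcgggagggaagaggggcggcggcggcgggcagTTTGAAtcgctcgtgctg
Ccnb1: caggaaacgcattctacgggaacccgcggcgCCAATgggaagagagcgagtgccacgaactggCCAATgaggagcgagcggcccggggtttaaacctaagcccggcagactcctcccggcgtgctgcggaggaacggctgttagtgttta
Cdc20: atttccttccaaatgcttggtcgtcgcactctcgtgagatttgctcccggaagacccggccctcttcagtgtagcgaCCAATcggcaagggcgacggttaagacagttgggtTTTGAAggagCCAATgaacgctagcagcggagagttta
A CCAAT box was found in all 4 windows, and the homology element core in those of Ube2c, Cenpf and Cdc20. Windows of 24 of the 28 list genes were counted. List genes without a window were left out, as were any on a chromosome that was skipped for the list but not for all windows. Counting 1 window a gene (Prc1 has overlapping windows, of which the first was used), 14 (58.3%) had the homology element core and 20 (83.3%) a CCAAT box. Of all 32851 promoter windows in the table, with no chromosome left out, 9.34% had the core and 24.2% a CCAAT box. Both motifs together were in 54.2% of the list's windows and 2.34% of all. A match describes the letters of a window and no site of binding.

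The mitotic difference was carried by few cells, a spread that the counting intervals of the mitotic levels leave out. In the OX40 agonist library 11 of 283 cells held 50% of all mitotic UMIs, and in the control library 7 of 168 did. The highest single cell held 153 mitotic UMIs with OX40 agonist and 362 in control, which is 6.28% of the sum with OX40 agonist and 9.99% in control. Ube2c was found in similar shares of cells, 14.1% with OX40 agonist and 14.9% in control, but its median among cells with a UMI was 1 UMI with OX40 agonist and 5 UMIs in control. With the droplets of 20 or more MHC class II UMIs left out, the list's median was -0.97.

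A cell was called cycling when it held 2 or more UMIs of the S phase and mitotic lists after thinning to 1000 UMIs, which 282 OX40 agonist and 165 control cells reached. Cycling cells were 74 (26.2%, 21.2 to 31.8) with OX40 agonist and 54 (32.7%, 25.6 to 40.5) in control, a ratio of 0.802 (0.557 to 1.16). Thinning draws UMIs at random with a fixed seed, and averaged over all possible draws the cycling shares were 28.0% with OX40 agonist and 32.0% in control (ratio 0.876). The call is a range and not a type: 37 cells with OX40 agonist and 19 in control had exactly 2 such UMIs, just inside, and 89 with OX40 agonist and 40 in control had exactly 1, just outside. By the same call 46.9% of CD8 T cells with OX40 agonist and 48.6% in control were cycling, and 16.3% of macrophages with OX40 agonist and 14.4% in control.

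Within cycling cells the mitotic list was lower with OX40 agonist, while the interval of the S phase ratio includes 1. The call uses UMIs of these same lists, so the values describe the called cells and test nothing. Mitotic genes summed to 3028 CPM in cycling regulatory T cells with OX40 agonist and 5450 CPM in control, a ratio of 0.556 (0.526 to 0.587). All 28 were lower, and the share of all genes lower within cycling cells is not given here. S phase genes summed to 2471 CPM in these cells with OX40 agonist and 2345 CPM in control, a ratio of 1.05 (0.982 to 1.13). In the remaining cells mitotic genes summed to 311 CPM with OX40 agonist and 355 CPM in control, a ratio of 0.877 (0.741 to 1.04). Cells with 3 or more mitotic UMIs after thinning were 18 (6.38%) with OX40 agonist and 19 (11.5%) in control, a ratio of 0.554 (0.274 to 1.12). Averaged over all draws those shares were 7.84% with OX40 agonist and 12.6% in control (ratio 0.624). Cells in which mitotic UMIs outnumbered S phase UMIs, among those with 5 or more, were 10 (3.55%) with OX40 agonist and 15 (9.09%) in control, a ratio of 0.390 (0.157 to 0.928).

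The other populations of the libraries did not show the same pair of values. In CD8 T cells mitotic genes had a summed ratio of 0.899 (0.888 to 0.910), with 27 of 28 lower, and in macrophages of 1.17 (1.15 to 1.20). In conventional CD4 T cells the mitotic ratio was 0.932 (0.841 to 1.03), with 21 of 28 members lower and a median log2 ratio of -0.37. The S phase list of that population had 20 of 20 members lower and a ratio of 0.492 (0.433 to 0.560). These counts of lower members take in every list gene, with no minimum level. The S phase count of regulatory T cells given above had such a minimum. The share of all genes that were lower in these other populations is not given here, so their counts have no background. The difference between populations was not tested, since each rests on the same pair of libraries.

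Outside the cell cycle, Klf2 was the only further gene lower by the size rule besides Reep4. Klf2, a transcription factor that keeps T cells recirculating and induces S1pr1, stood at 65.1 CPM with OX40 agonist and 152 CPM in control, a ratio of 0.427 (0.337 to 0.540). It was found in 23.0% of cells with OX40 agonist and 29.2% in control. Without the droplets with MHC class II RNA it stood at 65.2 CPM with OX40 agonist and 121 CPM in control. Of 9 genes of resting T cells above 10 CPM, 3 were higher and 6 lower, with a median of -0.24. Ccr7, the lymph node homing receptor, was higher, at 348 CPM with OX40 agonist and 269 CPM in control. It is also a gene of migratory dendritic cells, and 50.6% of its UMIs with OX40 agonist and 55.8% in control lay in the droplets with MHC class II RNA. Without them Ccr7 stood at 219 CPM with OX40 agonist and 143 CPM in control.

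Genes higher with OX40 agonist were few, and several rested on few droplets. The 3 that passed the size rule were Tbc1d4, Ifng and Ccl3. Tbc1d4, a regulator of glucose transporter traffic, stood at 91.3 CPM with OX40 agonist and 24.1 CPM in control. Of its UMIs 83.5% with OX40 agonist and 87.1% in control lay in droplets with MHC class II RNA, without which it stood at 19.1 CPM with OX40 agonist and 3.73 CPM in control. Ifng, the gene of interferon-gamma, stood at 104 CPM with OX40 agonist and 31.1 CPM in control, but 1 cell held 111 of the 186 UMIs with OX40 agonist. Its log2 ratio was 1.47, against 0.50 without the highest cell of each library. The share of cells with an Ifng UMI was 14.8% with OX40 agonist and 14.9% in control. Ccl3, an inflammatory chemokine, stood at 201 CPM with OX40 agonist and 76.2 CPM in control, and 1 cell held 45.7% of its UMIs with OX40 agonist. The droplets with MHC class II RNA held 2.22% of them with OX40 agonist and 10.2% in control. Without cycling cells the log2 ratio of Ccl3 was -0.35 and that of Ifng 0.24.

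Below the size rule, Cfp, the gene of properdin, stood at 57.9 CPM with OX40 agonist and 27.2 CPM in control. It lay mostly in the droplets with MHC class II RNA, which held 85.6% of its UMIs with OX40 agonist and 85.7% in control, and without them it stood at 10.6 CPM with OX40 agonist and 4.66 CPM in control. Gsr, which encodes glutathione reductase, was spread over many cells. It stood at 72.9 CPM with OX40 agonist and 36.5 CPM in control, a ratio of 2.00 (1.42 to 2.85), and was found in 33.2% of cells with OX40 agonist and 16.7% in control. Its highest cell held 4.58% of its UMIs with OX40 agonist and 12.8% in control.

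Areg was the most abundant of these 6 genes. It stood at 791 CPM with OX40 agonist and 427 CPM in control, a ratio of 1.85 (1.68 to 2.05). The highest cell held 81 Areg UMIs with OX40 agonist and 47 in control. Of all Areg UMIs, 50% lay in 16 of 283 cells with OX40 agonist and in 10 of 168 in control. Without the droplets with MHC class II RNA, Areg stood at 878 CPM with OX40 agonist and 474 CPM in control. In conventional CD4 T cells it stood at 242 CPM with OX40 agonist and 301 CPM in control, and in CD8 T cells at 52.2 CPM with OX40 agonist and 110 CPM in control. Areg was thus higher with OX40 agonist in regulatory T cells and lower in both other T cell populations, a difference that was not tested.

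The share of regulatory T cells with Areg was less different than its level. After thinning to 1000 UMIs, 71 cells (25.2%) with OX40 agonist and 33 (20%) in control had an Areg UMI, a ratio of 1.26 (0.822 to 1.97). Averaged over all draws the shares were 25.7% with OX40 agonist and 19.3% in control (ratio 1.33). Unthinned, the shares were 41.3% with OX40 agonist and 33.9% in control. Among CD8 T cells thinned alike 2.01% with OX40 agonist and 4.87% in control had an Areg UMI, and among macrophages, which serve as the background of free RNA, 1.46% with OX40 agonist and 1.86% in control. The median unthinned depth of macrophages was 8568 UMIs with OX40 agonist and 9491 in control, and that of CD8 T cells 10101 with OX40 agonist and 12368 in control. The shares in regulatory T cells were above those of CD8 T cells and macrophages, which were deeper before thinning. Conventional CD4 T cells thinned alike had an Areg UMI in 8.89% (3.92 to 16.8) of cells with OX40 agonist and 10.0% (3.33 to 21.8) in control. In regulatory T cells the intervals were 20.2 to 30.7 with OX40 agonist and 14.2 to 26.9 in control. The control intervals of these populations overlap.

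**Figure D5:**
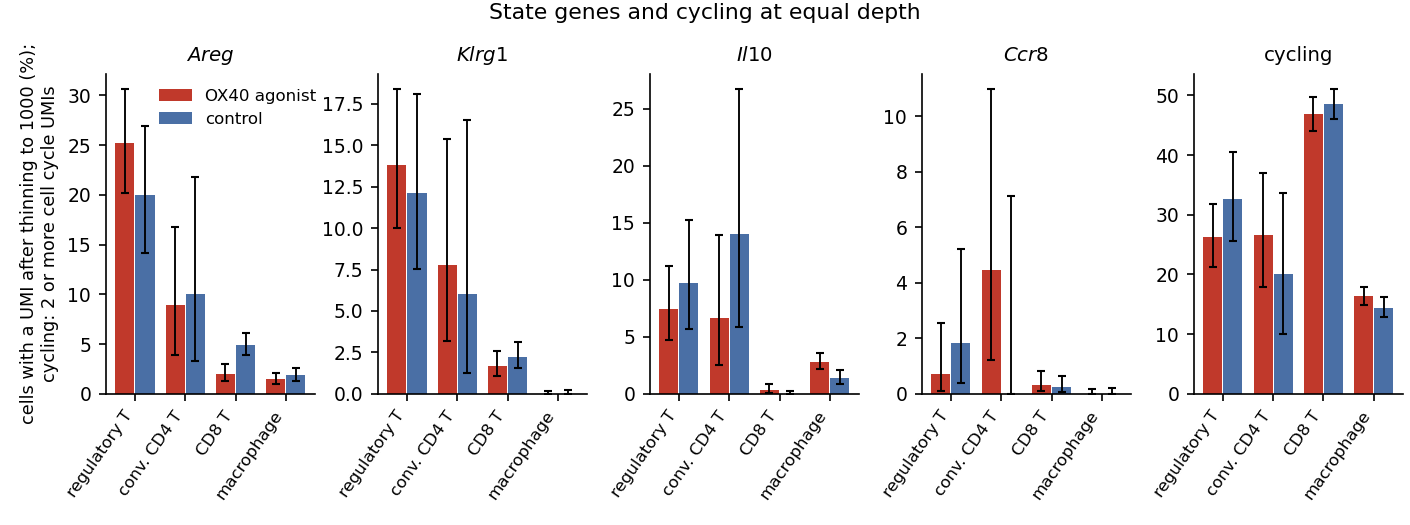
Share of cells with a UMI of Areg, Klrg1, Il10 or Ccr8, and share called cycling, after thinning each cell to 1000 UMIs (vertical axis, percent), in regulatory T cells and in the populations set beside them, with OX40 agonist left of control and 95% Clopper-Pearson bars. Areg was found in 25.2% of regulatory T cells with OX40 agonist and 20% in control. In CD8 T cells the shares were 2.01% with OX40 agonist and 4.87% in control. In conventional CD4 T cells they were 8.89% with OX40 agonist and 10.0% in control.

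Klrg1 marked a smaller fraction of the regulatory T cells, and no direction of difference between the libraries held. After thinning, 39 cells (13.8%) with OX40 agonist and 20 (12.1%) in control had a Klrg1 UMI, a ratio of 1.14 (0.650 to 2.07). Averaged over all draws the shares were 11.2% with OX40 agonist and 13.1% in control, a ratio of 0.855 on the other side of 1. The background was 0 of 2253 macrophages with OX40 agonist and 0 of 1669 in control, and 1.69% of CD8 T cells with OX40 agonist and 2.25% in control. Conventional CD4 T cells had Klrg1 in 7.78% (3.18 to 15.4) of cells with OX40 agonist and 6.00% (1.26 to 16.6) in control, with intervals that overlap those of regulatory T cells. The summed level was 122 CPM with OX40 agonist and 148 CPM in control, a ratio of 0.825 (0.677 to 1.01).

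Il10, the gene of the suppressive cytokine IL-10, was found in 21 thinned cells (7.45%) with OX40 agonist and 16 (9.70%) in control, a ratio of 0.768 (0.382 to 1.57), and averaged over all draws in 7.76% with OX40 agonist and 9.37% in control. Macrophages, which make Il10 themselves, had it in 2.80% of cells with OX40 agonist and 1.38% in control, and CD8 T cells in 0.322% with OX40 agonist and 0% (0 of 1559) in control. In conventional CD4 T cells the shares were 6.67% with OX40 agonist and 14.0% in control, so Il10 did not set regulatory T cells apart from that population in either library.

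Ccr8, a chemokine receptor of tumour regulatory T cells in mouse and human, was near the limit of detection. Thinned, only 2 cells with OX40 agonist and 3 in control had a UMI. Unthinned, 16 cells (5.65%) with OX40 agonist and 25 (14.9%) in control did, and no cell held more than 2 UMIs with OX40 agonist or more than 1 in control. The level was 10.0 CPM with OX40 agonist and 19.4 CPM in control, a ratio of 0.516 (0.265 to 0.984). Control cells were deeper, and conventional CD4 T cells had Ccr8 at 22.0 CPM with OX40 agonist and 5.33 CPM in control.

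The states overlapped rather than excluded each other. Among cells with a Klrg1 UMI, 35.9% (21.2 to 52.8) had Areg with OX40 agonist and 25.0% (8.66 to 49.1) in control. Among cells without, 23.5% (18.3 to 29.3) had Areg with OX40 agonist and 19.3% (13.2 to 26.7) in control, so the intervals overlap in both libraries. Cycling cells were 28.2% of Areg cells and 25.6% of the others with OX40 agonist, and 27.3% of Areg cells and 34.1% of the others in control. With OX40 agonist 10 of 21 Il10 cells (47.6%, 25.7 to 70.2) were cycling and 24.5% (19.4 to 30.2) of the others. In control 5 of 16 (31.3%, 11.0 to 58.7) were, and 32.9% (25.4 to 41.0) of the others.

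Genes that went with each state in both libraries are described without a test, because the states were cut from the same cells. The gene or lists that set a state are left out of its counts, and the states are those of the single seeded draw. Cells with Areg were 2-fold or more higher in 1 of 8191 genes (0.0122%) and lower in 33 (0.403%). Gata3, the transcription factor of type 2 immunity and of tissue regulatory T cells, stood at 97.6 CPM in Areg cells and 58.1 CPM in the others with OX40 agonist, and at 178 CPM in Areg cells and 87.3 CPM in the others in control. Gzmb stood at 1321 CPM in Areg cells and 942 CPM in the others with OX40 agonist, and at 1389 CPM in Areg cells and 842 CPM in the others in control. Crem, a cAMP-responsive transcription factor, had log2 ratios of 0.42 with OX40 agonist and 0.51 in control. The lowest genes were Ifitm1, Cst3, Alox5ap and Napsa, which lay mostly in the droplets with MHC class II RNA. Of those droplets, 4 with OX40 agonist and 1 in control had Areg, and 22 with OX40 agonist and 17 in control did not. Without them, 4 genes were 2-fold or more higher and 1 lower in Areg cells of both libraries, and the log2 ratios of Cst3 were -0.71 with OX40 agonist and 0.13 in control. Those of Gata3 were 0.57 with OX40 agonist and 0.85 in control.

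Il1rl1, which encodes the receptor of IL-33 and is known on tissue regulatory T cells, was rare. It stood at 21.4 CPM in Areg cells and 5.81 CPM in the others with OX40 agonist, and at 50.3 CPM in Areg cells and 21.6 CPM in the others in control. Over all regulatory T cells Il1rl1 stood at 9.46 CPM with OX40 agonist and 26.4 CPM in control (ratio 0.358, 0.188 to 0.659), and Gata3 at 67.9 CPM with OX40 agonist and 104 CPM in control (ratio 0.652, 0.506 to 0.839). Both were thus higher in Areg cells of each library, and lower with OX40 agonist, in which Areg was higher.

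Cells with Klrg1 were 2-fold or more higher in 7 of 8365 genes (0.0837%) and lower in 40 (0.478%). Ctla4 was among the highest abundant ones, at 2150 CPM in Klrg1 cells and 1524 CPM in the others with OX40 agonist, and at 3247 CPM in Klrg1 cells and 1947 CPM in the others in control. Glrx, a glutaredoxin, had log2 ratios of 0.57 with OX40 agonist and 0.81 in control, and Cited2, a transcriptional coregulator, of 0.53 with OX40 agonist and 0.91 in control. Atf3, Cxcl2, Ifitm1 and Lgals3 were the lowest. The droplets with MHC class II RNA held 67.4% of Atf3 UMIs with OX40 agonist and 87.8% in control. Without them the log2 ratios of Atf3 were -1.11 with OX40 agonist and -0.94 in control, those of Cxcl2 -2.40 with OX40 agonist and -0.27 in control, and those of Lgals3 -1.43 with OX40 agonist and -0.42 in control. Those of Ctla4 were 0.57 with OX40 agonist and 0.79 in control, and 18 genes were 2-fold or more higher and 81 lower.

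Cells with Il10 were 2-fold or more higher in 19 of 9150 genes (0.208%) and lower in 103 (1.13%), and without the droplets with MHC class II RNA higher in 35 and lower in 150. Lag3, an inhibitory receptor that binds MHC class II, stood at 573 CPM in Il10 cells and 262 CPM in the others with OX40 agonist, and at 592 CPM in Il10 cells and 245 CPM in the others in control. Nkg7, a granule membrane protein, stood at 1989 CPM in Il10 cells and 1408 CPM in the others with OX40 agonist, and at 2740 CPM in Il10 cells and 1192 CPM in the others in control. Penk, the gene of proenkephalin, showed the opposite, at 6.91 CPM in Il10 cells and 226 CPM in the others with OX40 agonist, and at 10.4 CPM in Il10 cells and 225 CPM in the others in control. Penk UMIs were found in 40 cells with OX40 agonist and 23 in control. The highest cell held 13.9% of them with OX40 agonist and 34.3% in control. There were 21 Il10 cells with OX40 agonist and 16 in control, so the Penk contrast rests on few cells.

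Cycling cells had the highest count of higher genes among these states, 186 of 8191 (2.27%) being 2-fold or more higher and 46 (0.562%) lower in both libraries. Without the droplets with MHC class II RNA 184 were higher and 18 lower. Genes outside the lists that set the call included Pclaf, a PCNA-binding protein gene, at 517 CPM in cycling and 16.3 CPM in other cells with OX40 agonist, and at 475 CPM in cycling and 16.6 CPM in other cells in control. The histone gene Hist1h1b and the tubulin-binding Stmn1 were also higher in cycling cells. The log2 ratio of Hist1h1b was 4.32 with OX40 agonist and 4.18 in control, and that of Stmn1 3.93 with OX40 agonist and 4.08 in control. Foxp3 stood at 291 CPM in cycling and 373 CPM in other cells with OX40 agonist, and at 296 CPM in cycling and 433 CPM in other cells in control. The rule asks for at least 1 Foxp3 UMI, which is a higher CPM in a shallow cell than in a deep one. The part of the rule in this Foxp3 difference was not tested. Tnfrsf9, Tnfrsf18, Maf, Izumo1r and Lag3 were also lower in cycling cells of both libraries. Tnfrsf9, for one, stood at 934 CPM in cycling and 1446 CPM in other cells with OX40 agonist, and at 846 CPM in cycling and 1211 CPM in other cells in control. Cycling cells were deeper, with a median of 7485 UMIs with OX40 agonist and 8731 in control, and the other cells had 4072 UMIs with OX40 agonist and 5130 in control.

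For Ccr8 the cells with a UMI before thinning were set against the rest, and depth differs between them. They were 2-fold or more higher in 21 of 8411 genes (0.25%) and lower in 42 (0.499%), and without the droplets with MHC class II RNA higher in 27 and lower in 85. The highest abundant ones were cell cycle and tubulin genes, with Top2a at 326 CPM in Ccr8 cells and 178 CPM in the others with OX40 agonist, and at 535 CPM in Ccr8 cells and 270.2 CPM in the others in control. Klrg1 was lower in Ccr8 cells, at 40.7 CPM in Ccr8 cells and 128 CPM in the others with OX40 agonist, and at 72.6 CPM in Ccr8 cells and 167 CPM in the others in control.

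The medians of effector and suppressive genes differed little, while single members differed in both directions. Of 22 effector regulatory T cell genes, 10 were higher and 12 lower with OX40 agonist, with a median of -0.02. Intervals were apart for 4 higher and 3 lower members, against 2.55% of all genes higher and 2.38% lower. Besides Areg and Tnfrsf9, the IL-1 decoy receptor Il1r2 (239 CPM with OX40 agonist and 175 CPM in control) and the inhibitory receptor Pdcd1 (174 CPM with OX40 agonist and 129 CPM in control) were higher with intervals apart. Il1rl1, Gata3 and Rora, a nuclear receptor of tissue lymphocytes (406 CPM with OX40 agonist and 528 CPM in control), were lower with intervals apart. Irf4, a transcription factor of effector regulatory T cells, stood at 23.9 CPM with OX40 agonist and 10.9 CPM in control (ratio 2.20, 1.18 to 4.35), from 43 UMIs with OX40 agonist and 14 in control.

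Of 17 suppressive mediators, 6 were higher and 11 lower (median -0.06). Intervals were apart for 3 higher and 1 lower member, against 2.55% of all genes higher and 2.38% lower. Nt5e, which encodes CD73, the enzyme that makes adenosine, stood at 89.6 CPM with OX40 agonist and 52.8 CPM in control, a ratio of 1.70 (1.27 to 2.29). Itgb8 stood at 65.7 CPM with OX40 agonist and 40.4 CPM in control, a ratio of 1.63 (1.16 to 2.30). Tgfb1 (257 CPM with OX40 agonist and 274 CPM in control), Entpd1 (65.1 CPM with OX40 agonist and 67.6 CPM in control) and Penk (208 CPM with OX40 agonist and 208 CPM in control) had intervals of the ratio that include 1. Prf1, the gene of perforin, stood at 48.4 CPM with OX40 agonist and 58.3 CPM in control.

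Chemokine receptors, 3 of 11 higher and 8 lower, had a median of -0.09. Ccr1 stood at 15.0 CPM with OX40 agonist and 38.9 CPM in control (ratio 0.387, 0.233 to 0.630). Of the receptors that the cells carried in quantity, Ccr2 (386 CPM with OX40 agonist and 412 CPM in control), Cxcr3 (135 CPM with OX40 agonist and 147 CPM in control) and Cxcr6 (95.7 CPM with OX40 agonist and 96.4 CPM in control) had ratios between 0.921 and 0.993. Of 12 cytokine genes of other T cells, 7 had no UMI in either library. Ifng, Tnf and Lta were above 10 CPM, all 3 higher with OX40 agonist, and Lta (lymphotoxin alpha) stood at 22.8 CPM with OX40 agonist and 5.44 CPM in control, from 41 UMIs with OX40 agonist and 7 in control.

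Interferon and antigen presentation lists had medians between -0.05 and 0.22. Of 17 interferon-gamma response genes 7 were higher and 10 lower (median -0.04), and of 13 type I interferon genes 11 were higher, against 45.4% of all genes, and 2 lower (median 0.22). The type I interferon median ran from -0.21 to 0.25 over 15 alternative settings, 4 of them below 0, so its direction did not hold. Of the type I interferon genes, Ifi27l2a stood at 2446 CPM with OX40 agonist and 2105 CPM in control. Ifit3 stood at 21.7 CPM with OX40 agonist and 8.55 CPM in control. It was found in 3.89% of cells with OX40 agonist and 3.57% in control. Its highest cell held 33.3% of its UMIs with OX40 agonist and 45.5% in control. Of 16 MHC class I presentation genes 6 were higher and 10 lower (median -0.05). Intervals were apart for 4 of them, all lower, against 2.38% of all genes. They were Tap2, a peptide transporter subunit, at 214 CPM with OX40 agonist and 278 CPM in control, the proteasome subunit gene Psmb10, at 252 CPM with OX40 agonist and 325 CPM in control, and the class I heavy chains H2-K1 (ratio 0.952) and H2-D1 (ratio 0.939).

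Of 15 glycolysis genes 13 were lower, against 54.6% of all genes, with a median of -0.15. Intervals were apart for 5 of them, against 2.38% of all genes. Eno1 stood at 326 CPM with OX40 agonist and 471 CPM in control (ratio 0.691, 0.616 to 0.776). Eno1 was also lower in the other populations, at 323 CPM with OX40 agonist and 462 CPM in control in CD8 T cells, and at 363 CPM with OX40 agonist and 539 CPM in control in macrophages. Pkm stood at 1499 CPM with OX40 agonist and 1740 CPM in control (ratio 0.861, 0.814 to 0.911), and Gapdh at 3619 CPM with OX40 agonist and 3931 CPM in control (ratio 0.921, 0.887 to 0.955). Of 18 oxidative phosphorylation genes 10 were higher and 8 lower (median 0.04), and none had intervals apart.

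Of 14 genes of T cell receptor signalling, 6 were higher and 8 lower (median -0.03). Nr4a2, an orphan nuclear receptor induced by receptor signals, stood at 77.9 CPM with OX40 agonist and 42.0 CPM in control (ratio 1.86, 1.35 to 2.59). Nr4a1 (60.7 CPM with OX40 agonist and 69.2 CPM in control) and Cd69 (182 CPM with OX40 agonist and 158 CPM in control), induced by the same signals, had intervals of the ratio that include 1. The list of genes that rise when tissue is dissociated had 9 members higher and 9 lower (median -0.01). Jun stood at 235 CPM with OX40 agonist and 138 CPM in control, Ier3 at 66.8 CPM with OX40 agonist and 20.2 CPM in control, and Egr1 at 25.0 CPM with OX40 agonist and 53.6 CPM in control. The part of tissue handling in Nr4a2 and in these genes was not tested.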

How the data were processed

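Per the file headers and the submitters' processing notes, the authors deposited raw UMI counts per gene and barcode, made with Cell Ranger 3.1.0 on the mouse build mm10. The matrices hold 8569 barcodes with OX40 agonist and 7187 in control, far fewer than a list of all droplets would. No further normalization is recorded in the sources used here. Barcodes with at least 500 UMIs, 200 genes and at most 10% mitochondrial UMIs were kept. UMIs were summed over the regulatory T cells of each library. Levels are CPM of that sum, and log2 ratios add 10 CPM. With 1 library in a group no test was run, and exact Poisson, conditional and Clopper-Pearson 95% intervals cover counting error only.

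Genes named between the libraries reached 50 CPM, 30 UMIs and 5% of cells in the higher library, intervals apart and a log2 ratio of at least 1 in size, and the class had at least 0.5 times the library's own CPM. The next genes at 1.5-fold or more filled a direction to 6. Up to 4 members with the largest ratio of each list were added, as were the markers and state genes. Other list members are named because their intervals were apart or to give abundant members, which was chosen after their values were seen. The members of the class and all lists were chosen with earlier results of these data known.

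To compare shares of cells, each cell was thinned to 1000 UMIs with a fixed seed. Ccr8 left too few cells after thinning, so its states were called unthinned, a change from the plan. Doublets were scored by the Scrublet method in scanpy 1.11.5 and kept. Promoters are from RefSeq's table for GRCm38.p6. Numpy 2.4.6, pandas 2.3.3 and scipy 1.17.1 were used, and counting and thinning were tested on simulated data.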

Additional observations from a re-analysis of the deposited data

How the results depend on the processing

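The counts of genes past the size rule, 3 higher and 9 lower with OX40 agonist, depended on the settings. The higher count was 6 with at least 2 Foxp3 UMIs, 10 with a Cd4 UMI required, 6 with Cd8a and Cd8b1 at 0, 11 with macrophage UMIs under 2, 7 without cycling cells, 0 as a mean over cells, 14 with no minimum level and 31 at 1.5-fold. The lower count was 17 with macrophage UMIs under 2, 4 without cycling cells, 19 without droplets of 20 or more MHC class II UMIs, 15 with 1 CPM added, 4 as a mean over cells, 5 with thinned cells, 18 with no minimum level and 43 at 1.5-fold. The share of regulatory T cells had a ratio of 1.43 over all barcodes, 1.17 with at least 2 Foxp3 UMIs and 1.86 of T cells, and it reversed to 0.989 of CD4 T cells. Beside conventional CD4 T cells the 7 higher genes became 21 without the highest doublet scores, 20 without cycling cells, 80 with 1 CPM added and 311 thinned, and the 33 lower genes 124 with 1 CPM added and 130 thinned. The cycling ratio, 0.802, was 0.549 at 8 or more UMIs and lay between 0.549 and 1.15 over 17 alternatives, 4 of them above 1. With states called thinned, 143 genes were higher and 2633 lower in Ccr8 cells. Called unthinned, 4 were higher and 6 lower with Klrg1, 0 higher and 4 lower with Areg, 18 lower in cycling cells, and 8 higher and 3 lower with Il10. Without the droplets of 20 or more MHC class II UMIs, 85 genes were lower with Ccr8, 18 higher and 81 lower with Klrg1, 4 higher and 1 lower with Areg, 18 lower in cycling cells and 35 higher with Il10. Without cycling cells the log2 ratios of Ccl3 (-0.35) and Cdc20 (0.24) reversed, and the cause was not tested. The mitotic median stayed below 0 over 16 alternatives (-0.97 to -0.36), Areg above 0 over 16 (0.48 to 1.09) and its share ratio above 1 over 13 (1.21 to 1.51). The Ccr8 share had no ratio with at least 2 Foxp3 UMIs, where no control cell had it. The alternatives on MHC class II, 5 or 8 UMIs and the mean over all thinnings were chosen after seeing the data. No paired analysis was possible because each group is 1 library and no result comes from a test, and for the same reason no replicate could be left out. Depth limits Ccr8, at 1 or 2 UMIs a cell.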
